A study of Homo sapiens with 6 samples.

Results

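The genes described here are 41 genes of the lysosome and of autophagy, out of 20745 genes with a value in the study. They were picked by symbol. The list covered cathepsins, lysosomal membrane proteins, glycosidases, lipid hydrolases and lipid carriers, and the proton pump. It also covered the transcription factors TFEB and TFE3, progranulin and the core of autophagy. The rule of the list drops genes without a value in the study, so that each of the 41 has one. The cells were conditionally immortalized human podocytes of the AB 8/13 line (cihPod), kept at 37 °C to differentiate. There were 3 control cultures in serum-free medium for 24 h and 3 cultures treated with 1 µM levamisole, an anthelminthic drug that is also given in nephrotic syndrome, for 24 h. The labels place both groups in medium without serum, whereas the methods of the study describe complete medium for the vehicle cultures, and this was not resolved. The titles of the levamisole cultures also carry the word control, and they were grouped by the levamisole that the title names, as the treatment label also does. The study describes its repeats as different passages of the one line.

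Lysosomes are acidic organelles in which hydrolases digest proteins, glycans and lipids brought in by endocytosis or by autophagy, the process by which a membrane encloses part of the cytoplasm and fuses with the lysosome. The proton pump of the lysosomal membrane (V-ATPase) keeps the lumen acidic, and transcription factors of the MiT-TFE family bind an E-box motif near the start of many lysosomal genes. Podocytes are long-lived cells of the kidney filter that divide rarely, and they are known for a high rate of autophagy.

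The only value used for each gene was the base mean, which is the mean of the read counts after division by a size factor per library, as the authors deposited it. It is 1 value per gene over all libraries of their fit, controls and levamisole-treated cultures together. No value per culture was analysed here, so the spread between cultures is unknown, differences between genes carry no replicate check, and the question of the study, whether levamisole changed these genes, was not analysed here. The summed base mean was 6345660, of which 34.8% lay in 22 genes of the mitochondrial genome. Depth per library is unknown.

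The labelled cell type was compared with its markers first. Among the podocyte markers with a value, VIM (base mean 19062), ACTN4 (14320.5) and CD2AP (929) were high, and other cells also express these genes. SYNPO (22.8), NES (18.1), PODXL (15.3), TCF21 (7.20), WT1 (6.21), CLIC5 (2.67) and PTPRO (0.333) were near or under the median base mean of all genes, 21.8. NPHS1 and LMX1B were not analysed here. The defining markers of a mature podocyte were thus low or without a value in this line. Markers of other cells were at or near 0, with base means of at most 0.690 for endothelial genes (TEK) and at most 2.40 for leukocyte and macrophage genes (CD14). The exception was AQP1, a water channel of the proximal tubule and of some endothelia, with a base mean of 243, whereas the tubular genes CUBN, SLC34A1 and SLC5A2 were at most at 1.22.

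The promoters of the members are shown first, because some of them hold the motif that the MiT-TFE factors among the members bind. RefSeq promoters on GRCh38.p14, from 250 bases before to 50 bases after the start of transcription, were matched for 31 of the 41 members by symbol. The others (ASAH1, ATP6V1A, ATP6V1B2, ATP6V1H, CTSB, CTSK, HEXA, LAMP2, NAGLU and PSAP) had no match. The motifs searched were CACGTG, the E-box read by many basic helix-loop-helix factors, and TCACGTGA, the longer form bound by TFEB and TFE3. Each is its own reverse complement, so that 1 search covers both strands, and every TCACGTGA also counts as a CACGTG. Of the 31 members with a promoter, 5 held TCACGTGA, namely CTSA, LAMP1, GAA, MCOLN1 and ATP6V0D1. The stretches before the start that hold it are printed here 5′ to 3′ on the strand of the gene, with each CACGTG or TCACGTGA in capitals:
CTSA, chr20:45891281-45891328, plus strand: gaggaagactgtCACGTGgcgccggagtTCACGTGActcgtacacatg
GAA, chr17:80101492-80101568, plus strand: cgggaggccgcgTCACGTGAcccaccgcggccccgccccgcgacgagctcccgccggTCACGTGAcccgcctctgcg
MCOLN1, chr19:7522570-7522623, plus strand: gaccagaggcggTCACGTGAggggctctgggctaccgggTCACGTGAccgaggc
ATP6V0D1, chr16:67481198-67481229, minus strand: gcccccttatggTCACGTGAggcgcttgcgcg
LAMP1, chr13:113297035-113297229, plus strand: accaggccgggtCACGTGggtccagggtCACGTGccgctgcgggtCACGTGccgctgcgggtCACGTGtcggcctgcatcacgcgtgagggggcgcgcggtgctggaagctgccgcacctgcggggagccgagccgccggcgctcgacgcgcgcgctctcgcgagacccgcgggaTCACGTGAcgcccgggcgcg

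The LAMP1 promoter stood out by number, with 6 CACGTG in the window. The first 4 lie close together, beginning at positions -192, -176, -159 and -142 from the start of transcription, and the last crosses the start itself. LAMP1, GAA and MCOLN1 each held 2 copies of TCACGTGA, and those of LAMP1 begin at positions -29 and -2. The copies of MCOLN1 begin at positions -42 and -15, and those of GAA at positions -77 and -32. CTSA held 1 copy, and 1 CACGTG with other flanks lies upstream of it. In ATP6V0D1 the motif begins at position -60. CTSF held 2 CACGTG, CTSD and CD63 held 1 each, and none of these 3 has the flanks of TCACGTGA. CD63 has 8 promoters in the search, and the motif was in only 1 of them.

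**Figure D1:**
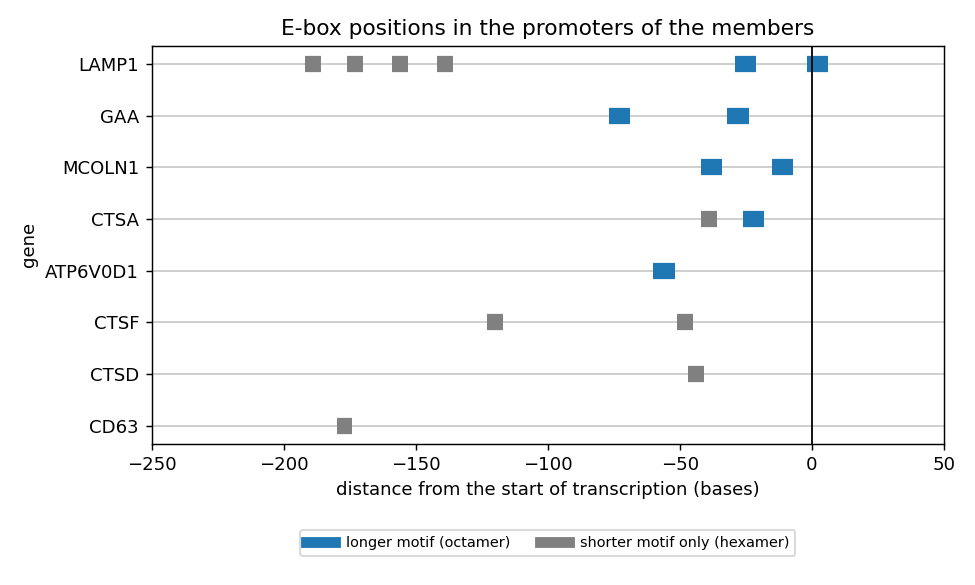
Positions of the E-box in the promoters of the 8 members that hold it, against the distance from the start of transcription in bases (vertical line at the start). Blue blocks are the longer motif and grey blocks the shorter motif with other flanks. The longer motif farthest from the start begins at position -77, in GAA, while 4 grey blocks of LAMP1 lie farther upstream.

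The share of genes with TCACGTGA in a promoter was higher among the members than among all genes, and the difference was given no test. The members were picked by name, and the motif is known near the start of many lysosomal genes. The higher share is thus a description of the list and no new finding about these cells. TCACGTGA was held by 5 of 31 members (16.1%) and 243 of 11387 protein-coding genes with a base mean (2.13%). Of the 9512 such protein-coding genes whose base mean reached 5, 226 held it (2.38%). Over all 27305 genes with a RefSeq promoter on assembled chromosomes, 321 held it (1.18%). CACGTG was held by 12.2% of the 11387 protein-coding genes and 8.77% of all genes with a promoter. It was in 28 of 120 other genes of the pathway (23.3%) and in 8 of 31 members (25.8%). All 8 are lysosomal members, of which 20 had a promoter, and none of the 9 autophagy members (SQSTM1, MAP1LC3B, GABARAPL1, GABARAPL2, ULK1, BECN1, WIPI1, ATG5 and ATG7) held either motif. With so few promoters and a background of 12.2% for CACGTG, 0 of 9 does not set the autophagy members apart. Among the 120 other genes of the pathway with a promoter and a base mean, 12 (10.0%) held TCACGTGA. These were GALNS, CLN3, SLC36A1, ATP6V1G1, IGF2R, GNPTG, NAGPA, RRAGB, TSC2, NRBF2, ATG3 and VPS11. A match says only that the letters are in the window, and no binding was measured. A gene with several starts counts once, with all its windows searched, and 6 members have more than 1.

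**Figure D2:**
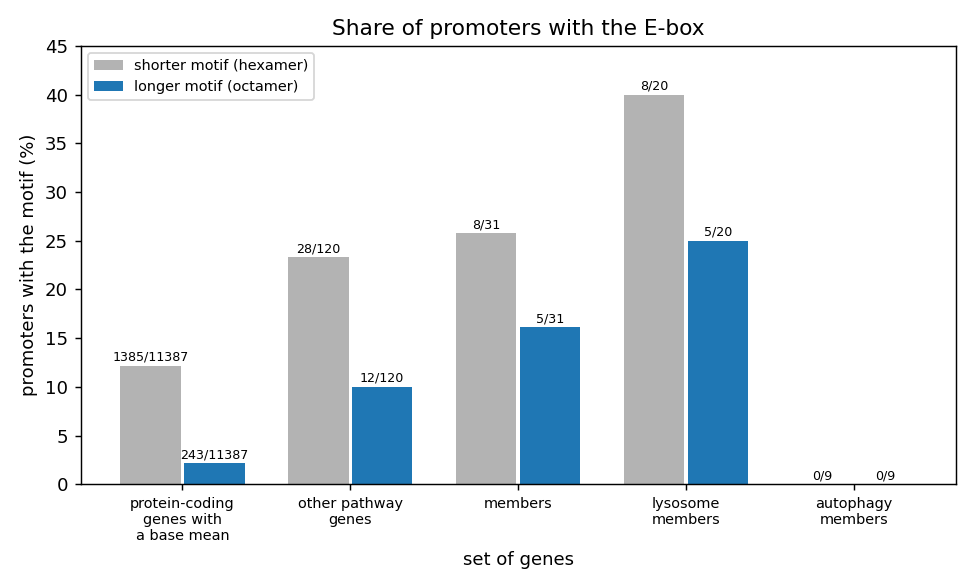
Percentage of genes with a promoter that hold the shorter motif (grey) or the longer motif (blue) in each set. Above each bar is the number of genes with the motif over the number searched. The longer motif is in 5 of 31 members and 12 of 120 other pathway genes, against 243 of 11387 protein-coding genes, and the 9 autophagy members hold neither.

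The 5 members with TCACGTGA ranged widely in level. Of the 3 with 2 copies, MCOLN1 had a base mean of 5.92, GAA of 41.1 and LAMP1 of 747. ATP6V0D1, with 1 copy, was at 373 and CTSA, also with 1, at 318. GRN, the highest member, had a promoter in the search and held neither motif. Of the members next in level, ATP6V1B2, CTSB, PSAP, LAMP2, ASAH1 and ATP6V1A (places 2, 3, 5, 6, 7 and 8) had no matched promoter. The motif was thus not searched in much of the top of the level range.

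As a group the members were expressed well above the typical gene. Their median base mean was 318, against 21.8 over all 20745 genes and 66.2 over 14455 protein-coding genes. Above the median gene lay 39 of the 41 (95.1%), against 68.4% of protein-coding genes and 84.5% of 155 other genes of the pathway. Above the 90th percentile of all genes were 19 members (46.3%), against 14.2% of protein-coding genes and 17.4% of 155 other genes of the pathway. The 41 members together took 0.465% of the summed base mean. A few genes made up most of that: GRN alone gave 18.6% of the members' sum, the 5 highest gave 50.5% and the 10 highest gave 73.6%. All 41 had a base mean of at least 5, which 13336 of all genes (64.3%) reached. So did 81.9% of protein-coding genes and 92.9% of the other pathway genes. A base mean of at least 100 was reached by 30 members (73.2%). That level was reached by 29.4% of all genes, 41.3% of protein-coding genes and 54.2% of the other pathway genes. Since the members are well known genes picked by name, the gap to all genes is a description and was given no test.

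**Figure D3:**
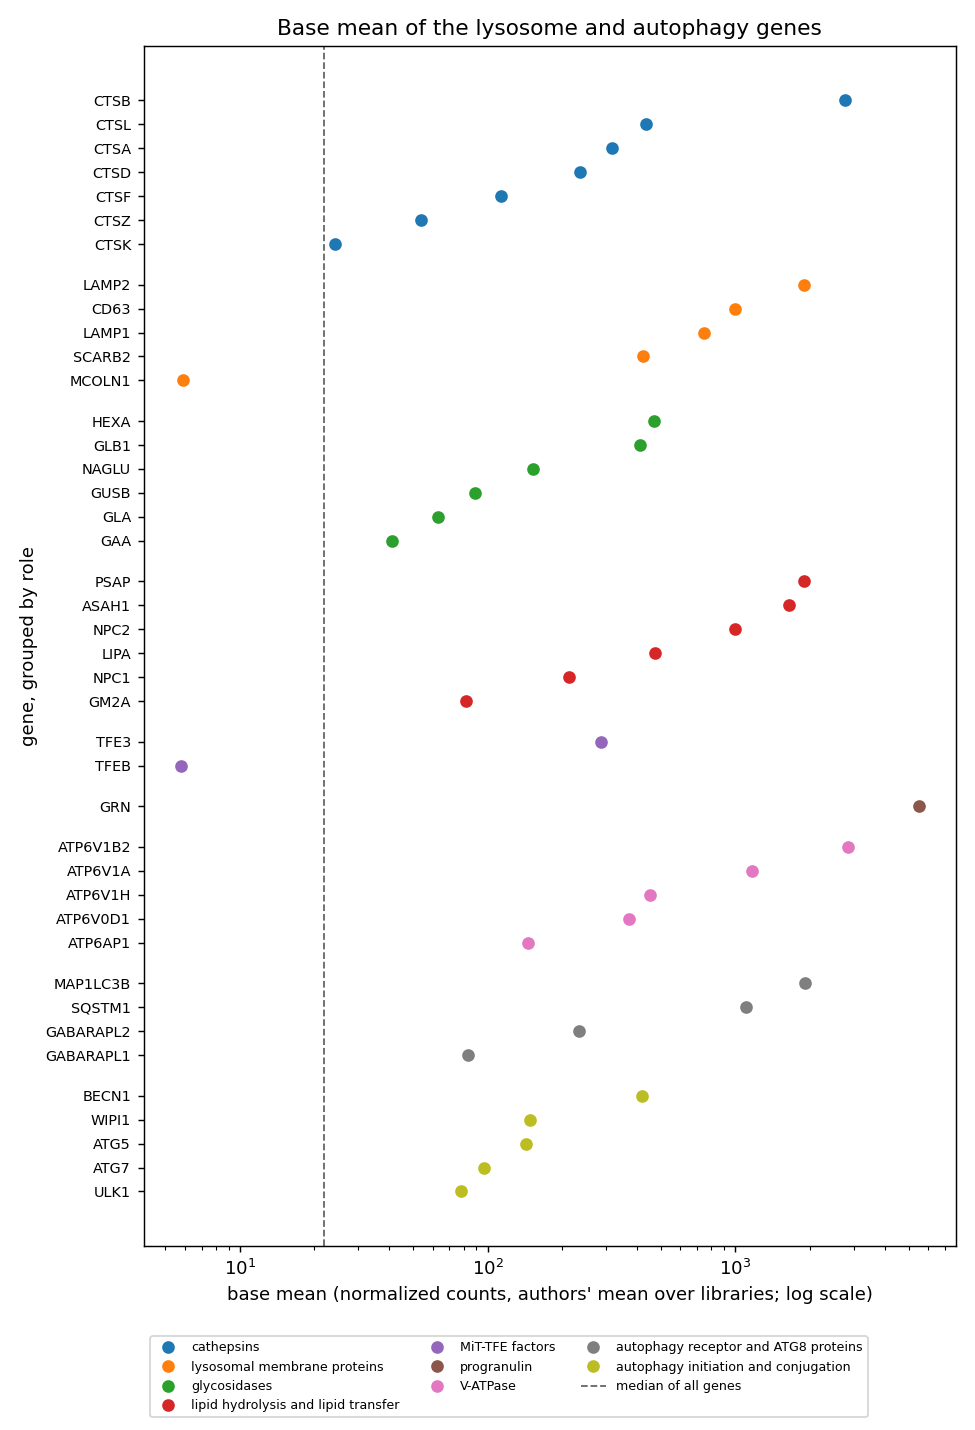
Base mean of each of the 41 genes on a log axis, grouped by role and ordered within each role, with the median of all genes as a dashed line. Each point is the authors' mean over libraries and has no error bar. TFEB and MCOLN1 lie left of the line and GRN, at 5487, lies farthest right.

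Base means of different genes were compared in 2 ways. The libraries start at the poly(A) tail, so that the number of reads depends little on the length of a transcript and the base mean itself is comparable between genes to a first approximation. It was also divided by the exonic length of the gene in kilobases (kb), which counts every annotated exon, retained introns included. Where division by the length of the canonical transcript moved a ratio by more than 1.5 times, that ratio is given too. Of the 10 members highest per kb, 9 were also among the 10 highest in base mean. GRN came first on both scales. CD63 and NPC2 moved up from places 10 and 11 in base mean to places 3 and 4 per kb, and SCARB2 and HEXA moved down from places 17 and 14 to places 31 and 25. TFEB and MCOLN1 were the last 2 on both scales.

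**Figure D4:**
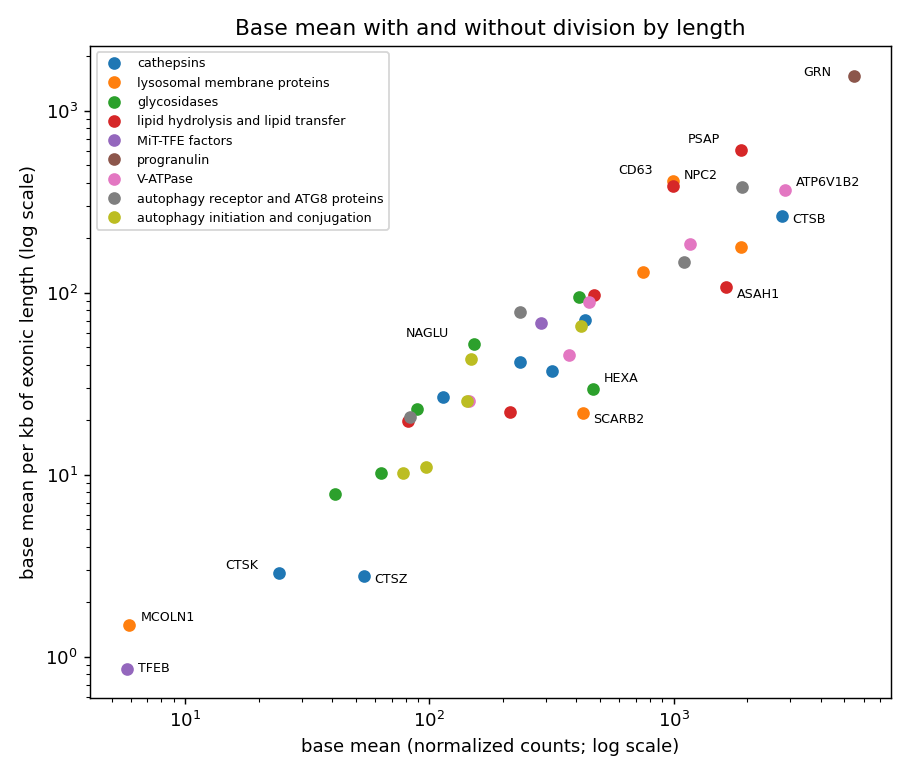
Base mean (horizontal) against base mean per kb of exonic length (vertical) for the 41 genes, both on log axes and coloured by role. GRN is highest on both, TFEB and MCOLN1 are lowest on both, and SCARB2 and HEXA lie below the other genes of like base mean because of their long annotated exons.

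GRN (ENSG00000030582, chromosome 17, 44345246 to 44353106, plus strand) encodes progranulin, a secreted protein that is carried to the lysosome and cut there into granulins. Its base mean was 5487, higher than 99.6% of all genes. It exceeded ATP6V1B2, the next member, 1.92-fold in base mean and 4.26-fold per kb (2.58-fold per kb of the canonical transcript). It also exceeded PSAP, which encodes the carrier prosaposin, 2.89-fold in base mean and 2.56-fold per kb.

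The cathepsins are lysosomal proteases, and 1 of them dominated. CTSB, a cysteine protease, had a base mean of 2771 and gave 70.1% of the sum over the 7 cathepsins (59.2% per kb). CTSL, another cysteine protease, had a base mean of 434. CTSA, a serine carboxypeptidase that also protects other hydrolases, was at 318. CTSD, the aspartic protease, was at 236, 11.7-fold below CTSB in base mean and 6.35-fold below per kb. CTSF (114), CTSZ (53.8) and CTSK (24.3) were the lowest. CTSK, the collagen-cleaving protease of osteoclasts, was 114-fold below CTSB in base mean and 91.5-fold below per kb (49.8-fold per kb of the canonical transcript), close to the median gene. Among 10 other lysosomal proteases with a value, base means ran from 4.53 for CTSE to 1400 for TPP1, the tripeptidyl peptidase, and CTSG was not analysed here.

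The 5 lysosomal membrane proteins among the members were high with 1 exception. LAMP2, which coats the membrane and takes part in the fusion with autophagosomes, had a base mean of 1888. CD63, a tetraspanin of late endosomes and exosomes, was at 994 and LAMP1 at 747. SCARB2 (LIMP-2), which carries glucocerebrosidase to the lysosome, was at 425. MCOLN1 (ENSG00000090674, chromosome 19, 7522624 to 7534009, plus strand), the calcium channel TRPML1, had a base mean of 5.92, at percentile 37.3 of all genes. LAMP2 exceeded MCOLN1 319-fold in base mean and 119-fold per kb. Part of the last 500 exonic bases of MCOLN1 (35.0%) is shared with other genes annotated on the same strand, among them PNPLA6, and reads that fall in 2 genes are not counted for either under the default counting. How much this lowers the base mean of MCOLN1 was not tested. LAMP2 exceeded LAMP1 2.53-fold in base mean and 1.37-fold per kb, but the 2 were nearly equal per kb of the canonical transcript (1.05-fold). Among 19 other lysosomal membrane proteins, base means ran from 0.538 for CLN3 to 3272 for LAPTM4A. Their median was 53.2, below the 66.2 of protein-coding genes. Of these 19, 10.5% lay above the 90th percentile of all genes, against 14.2% of protein-coding genes. The high level was thus one of the members and not of the class.

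The glycosidases were lower as a group, with a median base mean of 121. HEXA, the alpha subunit of beta-hexosaminidase, was at 468 and GLB1, the lysosomal beta-galactosidase, at 411. NAGLU, which degrades heparan sulfate, was at 153 and GUSB, the beta-glucuronidase, at 89.3. GLA, the alpha-galactosidase whose loss causes Fabry disease and podocyte storage of its lipid, was at 63.2. GAA, the acid alpha-glucosidase of glycogen, was the lowest at 41.1. HEXA exceeded GAA 11.4-fold in base mean and 3.76-fold per kb (8.92-fold per kb of the canonical transcript). Among 25 other hydrolases and cofactors, base means ran from 0.309 for ACP5, the acid phosphatase of osteoclasts and macrophages, to 2639 for FUCA1, the alpha-fucosidase.

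The genes of lipid hydrolysis and lipid transfer were among the highest, with a median base mean of 733. PSAP, the precursor of the saposins, was at 1897 and ASAH1, the acid ceramidase, at 1642. NPC2, which hands cholesterol to NPC1 inside the lysosome, was at 993, and NPC1, the membrane protein that receives it, at 214. NPC2 exceeded NPC1 4.65-fold in base mean and 17.4-fold per kb (26.9-fold per kb of the canonical transcript). The end of NPC2 is shared in 14.4% of its last 500 exonic bases with the microRNA gene MIR4709. LIPA, the acid lipase, was at 474. GM2A, the activator of ganglioside hydrolysis, was the lowest at 82.0, and PSAP exceeded it 23.1-fold in base mean and 31.1-fold per kb.

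The MiT-TFE factors, a family known to bind the longer E-box motif, were unequal in base mean. TFE3 (ENSG00000068323, chromosome X, 49028726 to 49043410, minus strand) had a base mean of 288, and TFEB (ENSG00000112561, chromosome 6, 41683978 to 41736259, minus strand) had one of 5.77, the lowest of all members. TFE3 was 49.9-fold above TFEB in base mean and 79.7-fold above per kb (35.4-fold per kb of the canonical transcript). MITF, another factor of the family and no member, had a base mean of 354, and its order with TFE3 depended on the scale (TFE3 at 0.813 of MITF in base mean and 1.43-fold above per kb). TFEC was at 2.28. Of the last 500 exonic bases of TFEB, none are shared with another gene on the same strand. Over the 20 other genes of this family and of mTORC1 control, LAMTOR1, a subunit of the Ragulator scaffold on the lysosome, was highest at 753.

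The 5 genes of the V-ATPase had base means from 145 to 2853, with a median of 452. ATP6V1B2, the widely expressed form of the B subunit of the ATP-cleaving head, had a base mean of 2853, and ATP6V1A, the catalytic A subunit, had one of 1171. The B subunit gene exceeded the A subunit gene 2.44-fold in base mean and 1.98-fold per kb (3.90-fold per kb of the canonical transcript). ATP6V1H, the regulatory H subunit, was at 452 and ATP6V0D1, in the membrane part, at 373. ATP6AP1, an accessory protein of assembly, was at 145. ATP6AP2, another V-ATPase gene and no member, was at 2857. That was 19.7-fold above ATP6AP1 in base mean and 11.7-fold above per kb (18.05-fold per kb of the canonical transcript). Among the 16 other V-ATPase genes with a value, base means ran from 0.827 for ATP6V0D2, the isoform of osteoclasts and renal intercalated cells, to that of ATP6AP2. ATP6V0C, ATP6V1B1 and ATP6V1G3 were not analysed here.

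Among the 9 autophagy members, MAP1LC3B and SQSTM1 were highest. MAP1LC3B, an ATG8 protein that is joined to lipid on the autophagosome, had a base mean of 1912. SQSTM1 (p62), a receptor that links ubiquitinated cargo to ATG8 proteins, had a base mean of 1108. The other ATG8 members were lower, GABARAPL2 at 234 and GABARAPL1 at 83.5, so that MAP1LC3B was 8.17-fold and 22.9-fold above them in base mean and 4.88-fold and 18.4-fold above per kb. Of the ATG8 genes that are no members, MAP1LC3A was at 19.5, GABARAP at 6.63, MAP1LC3B2 at 4.93 and MAP1LC3C at 0.971. The end of GABARAP is shared in 16.2% of its last 500 exonic bases with another gene on the same strand. MAP1LC3B2 is a near copy of MAP1LC3B, but no window of 60 bases in the end of MAP1LC3B had an exact second copy in the genome. Matches with a mismatch were not searched. Beside SQSTM1, all 11 other autophagy receptors lay above the median gene, as did 68.4% of protein-coding genes and 84.5% of the other pathway genes. These receptors ran from 58.9 for TEX264, a receptor for the endoplasmic reticulum, to 2035 for NCOA4, the receptor for ferritin.

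The genes that start autophagy and run its conjugation were at moderate levels, with base means from 78.0 to 420. BECN1, of the lipid kinase complex that marks the site of the autophagosome, was highest at 420. WIPI1, which reads that lipid mark, was at 148, and the genes of the conjugation machinery were at 143 for ATG5 and 96.7 for ATG7. ULK1, the kinase that starts the process under mTORC1 control, was lowest at 78.0. BECN1 exceeded ULK1 5.38-fold in base mean and 6.39-fold per kb (13.6-fold per kb of the canonical transcript). A relative outside the members was higher for WIPI1 and for ULK1. WIPI2 exceeded WIPI1 4.92-fold in base mean and 1.86-fold per kb. ULK2 exceeded ULK1 2.01-fold in base mean and 1.55-fold per kb (1.17-fold per kb of the canonical transcript). In the list of other initiation and nucleation genes the median base mean was 106, and base means ran from 1.18 for ATG9A to the 726 of WIPI2, and ATG9B was not analysed here. In the list of other ATG8 proteins and conjugation genes the median was 37.4, and the highest was ATG4C, a protease that trims ATG8 proteins, at 269.

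Of the sorting genes 91.7% and of the fusion genes 92.3% lay above the median gene. Among 12 genes of sorting to the lysosome, base means ran from 12.5 for NAGPA, the enzyme that uncovers the mannose 6-phosphate tag, to 925 for AP3B1, a subunit of the AP-3 adaptor. Among 13 genes of fusion with the lysosome, they ran from 15.5 for VPS16 to 1426 for RAB7A, the GTPase of late endosomes. Of the 155 other pathway genes with a value, 131 (84.5%) lay above the median gene, against 68.4% of protein-coding genes. The median base mean of these other pathway genes was 115.

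**Figure D5:**
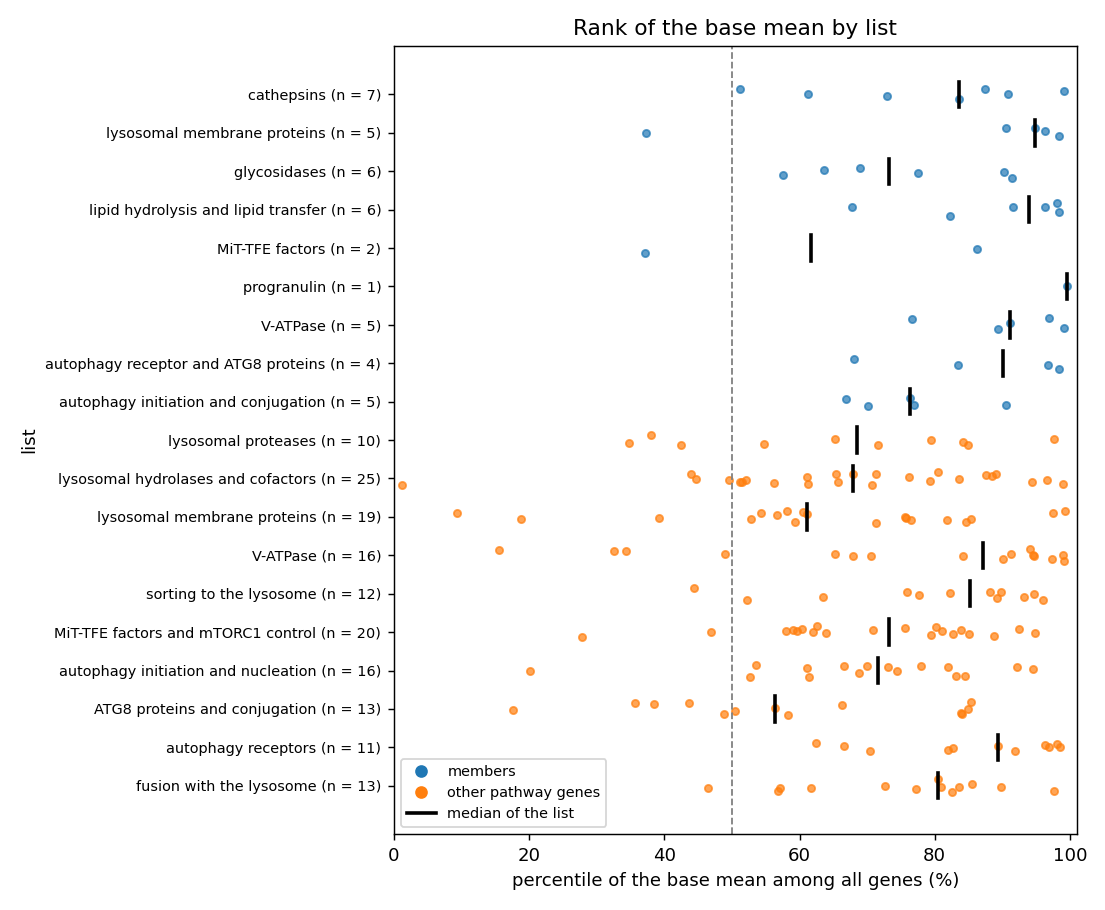
Percentile of the base mean among all genes for each member (blue) and each other pathway gene (orange), by list, with the median of the list as a black bar and the median gene as a dashed line. The vertical scatter within a row only separates points. Lists of members have their medians between 61.7% and 99.6%, and the lowest points are ACP5 and CLN3 among the other pathway genes.

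The ends of the genes were compared with the annotation, since reads are counted there. Reads lie near the end of a transcript, and one that overlaps exons of 2 genes on the same strand is left out. For 39 of the 41 members, the last 500 exonic bases were shared with no other gene, and MCOLN1 and NPC2 were the exceptions. Over all protein-coding genes, the median base mean was 69.1 for 13958 genes with no such overlap and 4.86 for 279 genes with at least 50% of the end shared. Of the other pathway genes, 5 were in the latter class. CLN3 (100%), ATG9A (100%) and CD68 (82.6%) had base means of 0.538, 1.18 and 1.06. MAN2B1 (100%) was at 13.0, while IDS (76.8%) was at 237. The share of reads lost at each gene was not tested. Repeats were searched as exact copies of windows of 60 bases within single exons of the end. Near copies and windows across splice junctions were not searched. In 37 members no such window stood elsewhere in the genome. In the other 4 the share was 6.54% for GUSB, 6.12% for CTSB, 1.81% for GABARAPL1 and 0.227% for ATP6V1A.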

How the data were processed

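RNA from 6 cultures was sequenced by CEL-seq in an adapted form. Per the labels and the methods of the study, the authors trimmed reads with Trim Galore 0.4.5 and cutadapt 1.18, aligned them to GRCh38 (Ensembl 95) with STAR 2.7.5a, counted them with HTSeq 0.11.0 under default parameters and ran DESeq2 1.22.0. A minimum of 5 reads per sample and gene is stated, whereas 13336 of the 20745 genes deposited have a base mean that reaches 5. The base mean is a signal that the authors deposited, the mean of counts divided by size factors, not divided by length. The same table holds the authors' own comparison (log2 fold change, standard error, Wald statistic, p-value and adjusted p-value), which was not used, and 0 columns of values per culture, so depth per library and replicate error are unknown and no test of levamisole against control was made.

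Percentiles, lengths and overlaps were computed with Python 3.11.15, NumPy 2.4.6 and pandas 2.3.3, and drawn with matplotlib 3.10.9. Lengths, positions and ends come from GENCODE 44 on GRCh38, a later annotation than the authors', which holds 20599 of the 20745 gene identifiers. The end of a gene is the last 500 exonic bases of its canonical transcript, and overlap was taken only with genes whose identifier is not later than the last one deposited. Functions were checked on simulated data. Some genes of the lists are not reported here. The members and lists were chosen with earlier results of these data known. All members are named, and from each list of 10 other pathway lists the highest and the lowest gene and those without a value. ATP6AP2 and TFEC fall under that rule, as the highest and the lowest gene of their lists. ATP6V1G1, MITF, ULK2 and the other genes named for a motif, an overlap or as ATG8 relatives were added after their values were seen.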

Additional observations from a re-analysis of the deposited data

How the results depend on the processing

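No paired analysis was possible because no value per culture was analysed, and for the same reason refits with another tool, other filters on counts and left-out replicates were not run. The median base mean of the members, 318, became 50.1 after scaling to a summed base mean of 1e6, 76.9 with that scaling without the genes of the mitochondrial genome, and 418 without the MiT-TFE factors and autophagy members, a choice made after seeing the data. It stayed at 318 without members whose end is shared by at least 50%, since there are none. The median percentile of the members, 87.5% among all genes, was 80.6% among genes whose base mean reached 5, 84.8% at a minimum of 1, and 82.3% among protein-coding genes. Of the 10 members highest per kb of exonic length, 9 were among the 10 highest per kb of the longest transcript, 9 per kb of the canonical transcript (added after seeing the data) and 9 with no division by length. The share of members with TCACGTGA, 16.1%, was the same in the 250 bases before the start alone, 25.8% for CACGTG and 22.6% with 1 mismatch allowed at either end. With that mismatch the share was 6.89% of protein-coding genes with a base mean and 21.7% of the other pathway genes, and for CACGTG it was 12.2% and 23.3%.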
